A study of Mus musculus with 745 samples.

Results

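The genes described are 8 that code for proteins of the contacts between brain endothelial cells: Cldn5, Ocln, F11r, Esam, Tjp1, Cgnl1, Cdh5 and Pecam1. They were chosen by name, as 8 of the 20607 gene symbols in a table of read counts, and all 8 were in it. Its columns are single cells of young mice, aged 3 months, labelled as primary murine brain endothelial cells, which were taken from dissociated brain by flow cytometric sorting and sequenced 1 by 1. All cells belong to this 1 group, with no treatment and no other age or genotype to compare. Strain, sex and sorting markers are not stated in the labels. The titles of the cells divide them into 3 sets, Young1 with 225 cells, Young2 with 258 and AY_Y3 with 262. No label says if a set came from 1 animal, several pooled animals or 1 plate. A set therefore counts as 1 sample, and the spread between sets may be technical.

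Endothelial cells of brain vessels are joined by tight junctions, which close the gap between neighbouring cells to solutes, and by adherens junctions, which hold the cells together. In tight junctions, strands of claudins and occludin and adhesion molecules of the immunoglobulin family are tied to actin by scaffold proteins on the inner side of the membrane. Adherens junctions of endothelium are built on a cadherin bound to catenins. These contacts, together with low vesicle traffic and selective transporters, make up the blood-brain barrier.

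Of the strand proteins, Cldn5 codes for the claudin that is most abundant in brain endothelium and Ocln for occludin. F11r codes for a junctional adhesion molecule, Esam for an endothelial cell-selective adhesion molecule and Pecam1 for an adhesion molecule of the lateral endothelial border that is also found on platelets and leukocytes. Tjp1 codes for a zonula occludens scaffold protein that binds claudins and occludin. Cgnl1 codes for paracingulin, a scaffold found at both kinds of junction. Cdh5 codes for the vascular endothelial cadherin.

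The count table holds symbols and no coordinates, and the builds mm8 and mm10 are both named by the submitters without a role, so positions are given from GENCODE M21 on GRCm38. Cldn5 lies on chromosome 16 from 18776847 to 18778262, Ocln on chromosome 13 from 100496507 to 100552718, and F11r on chromosome 1 from 171437535 to 171464603. Esam lies on chromosome 9 from 37528078 to 37538319 and Cgnl1 on the same chromosome from 71626509 to 71771602. Tjp1 lies on chromosome 7 from 65296165 to 65527781, Pecam1 on chromosome 11 from 106654217 to 106750628, and Cdh5 on chromosome 8 from 104101625 to 104144511. All 8 are protein-coding genes on separate loci, and no exon of another annotated gene shared a base with their exons. The merged exons ran from 1.42 kb for Cldn5 to 7.84 kb for Cgnl1.

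Read counts per cell ran from 52819 to 2421434, with medians of 757949 in Young1, 713031 in Young2 and 411397 in AY_Y3. Levels below are CPM, the reads of a gene per 1000000 reads of a cell or of the summed cells of a set. Other cell types were looked for with 10 lists of marker genes, and a well was left out where any list reached 2000 CPM. This left out 108 wells and kept 637. Pericyte markers caused most of it, with 80 wells, against 15 for oligodendrocyte, 14 for astrocyte and 5 for smooth muscle markers, and the neuron, microglia, fibroblast, choroid plexus, leukocyte and platelet lists reached the limit in 0 wells. For Pecam1, which platelets and leukocytes also express, the leukocyte list summed to at most 0.0580 CPM and the platelet list to at most 2.46 CPM in any set and class described below. On these lists S100a8, Pf4 and Gp1bb had no count in those classes, and Cd3e and Ppbp were not found by symbol. The leukocyte value thus rests on Ptprc alone and the platelet value on Itga2b alone.

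Detection differed widely among the 8 genes. A count of Cldn5 was found in 739 cells, which is 99.2% of all (exact 95% interval 98.3 to 99.7%, which covers counting error only). Esam was detected in 92.6% of cells (90.5 to 94.4%) and Pecam1 in 88.5% (85.9 to 90.7%). The cadherin gene Cdh5 was detected in 74.6% (71.3 to 77.7%), Ocln in 74.0% (70.7 to 77.1%), Tjp1 in 67.5% (64.0 to 70.9%), F11r in 66.2% (62.7 to 69.6%) and Cgnl1 in 53.2% (49.5 to 56.8%). Intervals overlapped for Esam and Pecam1, for Cdh5 and Ocln, for Ocln and Tjp1, and for Tjp1 and F11r.

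Sequencing depth set part of this order. With every cell thinned at random to 50000 counts, Cldn5 kept a detection of 98.9%, Esam 91.7%, Pecam1 85.0%, Ocln 64.8% and F11r 63.5%. Cdh5 dropped to 57.0% and Tjp1 to 55.0%, both below F11r, and Cgnl1 to 44.7%. Detection of Cdh5 and Tjp1 thus depended on depth far more than that of F11r, Esam or Cldn5.

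Between the sets, AY_Y3 had the highest detection of F11r, Esam, Pecam1 and Cdh5 although its cells had the lowest median depth. F11r had a count in 60.4% of Young1 cells, 61.6% of Young2 cells and 75.6% of AY_Y3 cells, and thinned values were 57.3%, 57.4% and 74.8%. Esam had a count in 88.4% of Young1, 91.9% of Young2 and 96.9% of AY_Y3 cells, Pecam1 in 87.6%, 85.7% and 92.0%, and Cdh5 in 69.8%, 74.4% and 79.0%. Cgnl1 was lowest in Young1, with 46.2% against 56.6% in Young2 and 55.7% in AY_Y3. Ocln lay between 72.9% and 74.7% in all 3 sets. One set is 1 sample, so these differences carry no test.

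Cells mostly held several of the genes together. A kept cell had counts of a median of 6 of the 8 genes, and no kept cell had fewer than 2. All 8 were found in 126 of the 637 kept cells (19.8%), and 3 or fewer in 28 (4.40%). After thinning, 9.11% of kept cells still had all 8.

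Levels per cell ran from 0 to more than 1000 CPM for every gene. Cldn5 had a median of 3239 CPM over all cells, and 3406 CPM in Young1, 2768 in Young2 and 3681 in AY_Y3, with a highest cell at 11212 CPM. The quartiles of its cells were 2233 and 4604 CPM. Esam had a median of 1936 CPM, with 1850 in Young1, 1574 in Young2 and 2318 in AY_Y3, and a highest cell at 7851 CPM. Both genes were present at a high level in most cells, and in both AY_Y3 had the highest median.

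Pecam1 had a median of 654 CPM over all cells, with 552 in Young1, 629.9 in Young2 and 774 in AY_Y3, and reached 9426 CPM in its highest cell. F11r had a median of 274 CPM, with 257 in Young1, 133 in Young2 and 372 in AY_Y3, and Ocln one of 188 CPM, with 141, 129.7 and 252 CPM. Tjp1 had a median of 31.5 CPM and Cdh5 of 23.8 CPM. Cgnl1 had a median of 2.05 CPM, with 0 in Young1. Where a gene was detected the level was far higher, with medians of 622 CPM for F11r, 443 for Ocln, 300.04 for Cgnl1, 160.2 for Tjp1 and 57.6 for Cdh5 in the cells with a count.

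**Figure D1:**
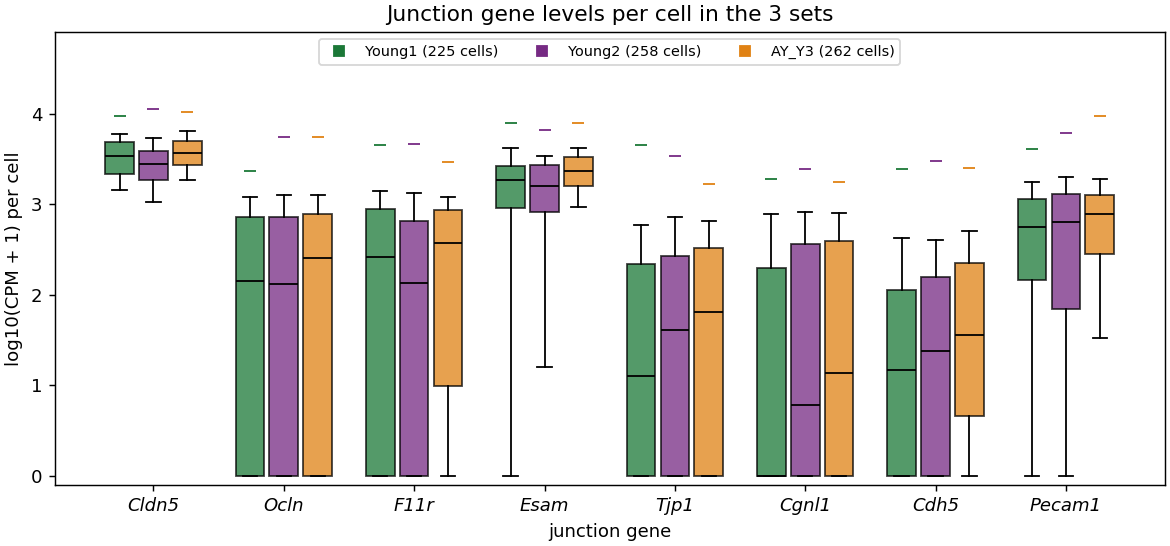
CPM per cell of the 8 junction genes in the Young1, Young2 and AY_Y3 sets, as log10(CPM + 1), where boxes span the quartiles with the median as a line, whiskers reach the 10th and 90th percentiles and a dash marks the highest cell. Cldn5 and Esam form narrow boxes at the top (medians over all cells of 3239 and 1936 CPM), and the boxes of Ocln, Tjp1 and Cgnl1 reach down to 0 in all 3 sets.

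The plot of levels per cell shows this divide between 2 evenly expressed genes and 6 that were high in some cells and at or near 0 in others. The coefficient of variation over cells was 0.54 for Cldn5 and 0.68 for Esam, 1.05 for Pecam1, 1.31 for F11r and 1.37 for Ocln. It was 1.68 for Cgnl1, 1.83 for Tjp1 and 2.04 for Cdh5. This order of the genes was also that of falling mean CPM per cell, from 3525 for Cldn5 to 157 for Cdh5. The part of low level in the spread was not tested. The tenth of cells with the highest level held 21.01% of the Cldn5 and 23.9% of the Esam CPM, but 52.7% of the Tjp1 and 59.1% of the Cdh5 CPM.

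To compare genes, summed CPM were divided by the length of the merged exons. Cldn5 led with 2471 CPM per kb in Young1, 2139.9 in Young2 and 2743 in AY_Y3. Esam followed with 725, 659.96 and 864 CPM per kb, and F11r with 214, 169.9 and 210.4. Pecam1 had 116, 131 and 147 CPM per kb and Ocln 105, 117 and 102, and their ranges overlapped. The lowest were Cdh5 with 28.8, 31.3 and 38.1, Cgnl1 with 25.8, 30.7 and 30.6, and Tjp1 with 25.02, 26.2 and 25.6 CPM per kb. Ranges of Cdh5 and Cgnl1 overlapped, as did those of Cgnl1 and Tjp1. Per length, the strand claudin thus lay far above the scaffold genes. The cadherin gene lay above both scaffold genes in each set, by little in Young2. Merged exons take in every annotated transcript, and the annotation behind the counts is not stated, so this ranking is rough.

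To follow the genes along the vessel tree, the 637 kept cells were sorted by 6 marker genes, each counted as present at 20 CPM. Cells with the arterial tyrosine kinase gene Bmx or the arterial gene Gkn3, and without the venous transcription factor gene Nr2f2 or the interleukin receptor gene Il1r1, are called arterial-marker cells. Those with Nr2f2 or Il1r1 and without Bmx or Gkn3 are venous-marker cells, and those with the chemokine gene Cxcl12 or with Rgcc and none of the other 4 are capillary-marker cells. There were 105 arterial-marker cells (18 in Young1, 45 in Young2 and 42 in AY_Y3), 119 venous-marker cells (35, 44 and 40) and 384 capillary-marker cells (136, 118 and 130). A further 16 kept cells had arterial and venous markers together and 13 had none. In 62 of the 637 kept cells (9.73%) an arterial or venous marker lay within a factor of 2 of the threshold, so the classes are ranges and not cell types.

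Markers kept out of the sorting gave a check of the names. The 6 arterial check genes summed to 2540 ± 877 CPM in arterial-marker cells, 56.6 ± 32.2 in venous-marker and 248 ± 88.4 in capillary-marker cells (SD, n = 3 sets), and 6 of 6 were highest in arterial-marker cells. The 6 venous check genes summed to 255 ± 263, 2997 ± 285 and 772 ± 110.1 CPM in the same order, with 5 of 6 highest in venous-marker cells. The capillary check genes summed to 5517 ± 597, 17569 ± 349 and 14122 ± 732 CPM, and only 2 of 6 were highest in capillary-marker cells. The arterial and venous names therefore fit their check genes, and the capillary name rests on the sorting markers alone.

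Arterial-marker and venous-marker cells were sorted by markers of opposite ends of the vessel tree. The classes are not those ends themselves, since the capillary check genes summed highest in venous-marker cells. Most of the unadjusted differences of the 8 genes lay between arterial-marker and venous-marker cells. In that comparison 0 of the 8 genes passed edgeR's quasi-likelihood test with Benjamini-Hochberg adjusted p under 0.05, where 1.38% of the 8900 genes tested passed. Without adjustment 5 of 8 had p under 0.05 in edgeR, against 11.4% of all genes, and in the same 5 the ranges of the 3 sets did not overlap, against 17.7% of all genes. DESeq2 on the same sums called 2 of 8, Pecam1 and F11r, where it called 10.7% of all genes. With cells thinned to 50000 counts edgeR called 2 of 8, F11r and Esam, against 3.25% of all genes. F11r, Pecam1, Cdh5 and Cgnl1 had positive fitted changes and Cldn5, Esam, Ocln and Tjp1 negative ones, with a median log2 fold change of 0.04 over the 8 and −0.07 over all genes.

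Of the 3 adhesion molecule genes, Pecam1 and F11r had higher values in arterial-marker cells and Esam, given below, lower ones. Pecam1 had 947, 1281 and 943 CPM in arterial-marker cells of Young1, Young2 and AY_Y3, against 706, 632 and 685 CPM in venous-marker cells. Each arterial value was above each venous one, with a log2 fold change of 0.70 ± 0.19 (SE, interval 0.26 to 1.13, edgeR p = 0.00674, adjusted p = 0.181). F11r had 900.3, 568 and 627 CPM in arterial-marker cells, against 473, 407 and 555 CPM in venous-marker cells, with a log2 fold change of 0.59 ± 0.20 (interval 0.12 to 1.05, edgeR adjusted p = 0.314). Its ranges lay close together, since the lowest arterial value was 568 CPM and the highest venous value 555 CPM. The Young1 arterial values come from 18 cells. Of their counts, the highest single cell gave 27.1% for Pecam1 and 29.2% for F11r.

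Detection of F11r also differed between the classes, in another order than its summed level, which averaged 698 ± 177 CPM in arterial-marker, 478 ± 74.3 CPM in venous-marker and 539 ± 37.6 CPM in capillary-marker cells (SD, n = 3 sets). The gene had a count in 83.3%, 77.8% and 88.1% of arterial-marker cells in Young1, Young2 and AY_Y3, in 74.3%, 63.6% and 72.5% of venous-marker cells and in 53.7%, 54.2% and 70.8% of capillary-marker cells. After thinning the values were 77.8%, 73.3% and 88.1% for arterial-marker, 71.4%, 59.1% and 72.5% for venous-marker and 51.5%, 50.0% and 69.2% for capillary-marker cells. In each set the order of detection was arterial, venous, capillary, before and after thinning. The summed level had that order in AY_Y3 only, with 627, 555 and 517 CPM. The median cell had 907, 420.1 and 638 CPM of F11r among arterial-marker cells, 274, 148 and 337 CPM among venous-marker cells and 33.5, 24.98 and 323 CPM among capillary-marker cells. Genes detected per thinned cell were 1642, 1886 and 1985 (medians) in arterial-marker, 2185, 2142 and 2268 in venous-marker and 1444, 1494 and 1699 in capillary-marker cells, and the part of this difference in detection was not tested.

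Occludin, the Esam adhesion molecule and the Tjp1 scaffold had lower values in arterial-marker than in venous-marker cells. Ocln had 439.7, 396 and 343 CPM in arterial-marker cells, against 751, 613 and 466 CPM in venous-marker cells, with a log2 fold change of −0.57 ± 0.19 (interval −1.02 to −0.11, edgeR adjusted p = 0.314). Esam had 1931, 1423 and 1853 CPM in arterial-marker cells, against 2355, 2170.2 and 2763 CPM in venous-marker cells, with a log2 fold change of −0.43 ± 0.14 (interval −0.76 to −0.10, edgeR adjusted p = 0.296). In both genes every arterial value was below every venous one. Of the Esam counts in the 18 arterial-marker cells of Young1, 35.3% came from 1 cell. Thinned to equal depth, Esam had a log2 fold change of −0.56 and an edgeR adjusted p of 0.0230.

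Tjp1 was the member with the widest interval. It had 236, 103 and 77.5 CPM in arterial-marker cells of Young1, Young2 and AY_Y3, against 264, 274 and 312 CPM in venous-marker cells, a log2 fold change of −1.06 ± 0.43 (interval −2.08 to −0.04, edgeR adjusted p = 0.424). Of the Tjp1 counts in the 18 arterial-marker cells of Young1, 64.7% came from 1 cell. The highest single cell gave 54.4% of the Cgnl1, 45.4% of the Ocln and 42.4% of the Cdh5 counts. Whether it was the same cell for each gene is not given here. Without Young1 the log2 fold change of Tjp1 was −1.70, and without AY_Y3 it was −0.64. Detection of Tjp1 was 66.7%, 55.6% and 59.5% in arterial-marker and 82.9%, 86.4% and 87.5% in venous-marker cells.

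Cldn5, Cgnl1 and Cdh5 had overlapping ranges in arterial-marker and venous-marker cells. Cldn5 had 3621, 2703 and 3669 CPM in arterial-marker cells and 3390.2, 3431 and 4552 CPM in venous-marker cells, a log2 fold change of −0.13 ± 0.12 (interval −0.42 to 0.15, edgeR adjusted p = 0.761). It was detected in every cell of both classes in each of the 3 sets. Cgnl1 averaged 224 ± 47.6 CPM in arterial-marker and 198 ± 30.9 CPM in venous-marker cells (SD, n = 3 sets), and its interval ran from −0.28 to 0.72. Cdh5 averaged 197 ± 64.3 CPM in arterial-marker and 132 ± 19.3 CPM in venous-marker cells, with an interval of −0.13 to 1.36. The interval of Cldn5 was the narrowest of the 8 and left room for differences of up to 0.42 on the log2 scale, while those of Cdh5 and Tjp1 spanned more than a doubling.

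**Figure D2:**
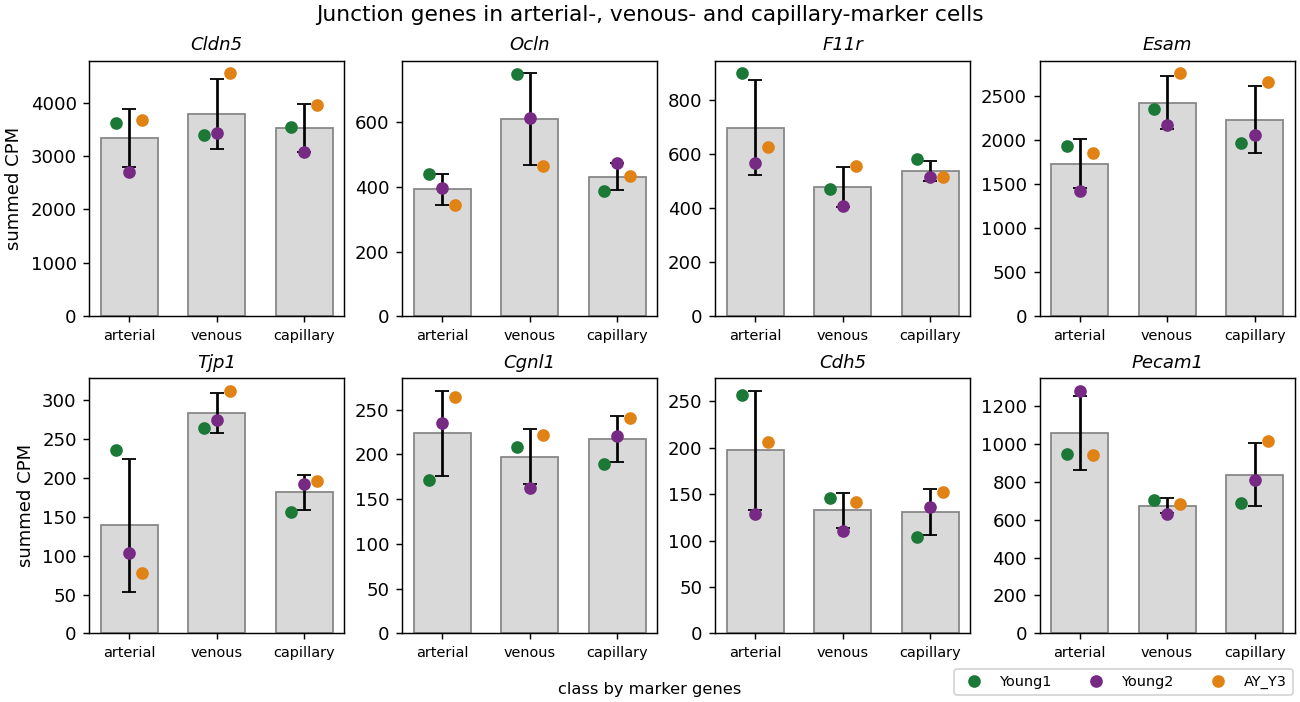
Summed CPM of the 8 junction genes in arterial-marker, venous-marker and capillary-marker cells, with 1 point per set (Young1, Young2, AY_Y3), bars at the mean of the 3 sets and error bars of 1 SD. Pecam1 and F11r have their arterial points above their venous points, Ocln, Esam and Tjp1 have them below, and Cldn5 overlaps among all 3 classes.

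Against capillary-marker cells, the most numerous class, arterial-marker cells showed smaller differences. Of the 8 genes 0 passed in edgeR, where 0.202% of all genes did, and 0 had an unadjusted p under 0.05, where 7.52% of all genes did. DESeq2 called 0 of 8, against 5.88% of all genes, and edgeR on thinned cells 0 of 8, against 1.25%. Ranges of the 3 sets did not overlap for 1 of 8 genes, Esam, against 15.9% of all genes. Esam had 1931, 1423 and 1853 CPM in arterial-marker cells, against 1971, 2062 and 2668 CPM in capillary-marker cells, and a log2 fold change of −0.30 ± 0.14 (interval −0.63 to 0.03, edgeR adjusted p = 0.716).

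For the other 7 genes the ranges overlapped. Pecam1 had 947, 1281 and 943 CPM in arterial-marker cells, against 687, 808 and 1016 CPM in capillary-marker cells, with a log2 fold change of arterial over capillary of 0.40 ± 0.19 (interval −0.04 to 0.83). F11r had 900.3, 568 and 627 CPM in arterial-marker cells, against 582, 517 and 517 CPM in capillary-marker cells, with a log2 fold change of 0.42 ± 0.20 (interval −0.05 to 0.88). Cldn5 had 3621, 2703 and 3669 CPM in arterial-marker cells, against 3544, 3067 and 3961 CPM in capillary-marker cells, with a log2 fold change of −0.02 ± 0.12 (interval −0.31 to 0.26). Averages of Ocln were 393 ± 48.5 CPM in arterial-marker and 432 ± 42.7 CPM in capillary-marker cells, those of Tjp1 139 ± 85.2 and 182 ± 22.5 CPM, those of Cgnl1 224 ± 47.6 and 217 ± 25.9 CPM, and those of Cdh5 197 ± 64.3 and 131 ± 24.8 CPM. Within sets, F11r was higher in arterial-marker than in capillary-marker cells in 3 of 3, and no interval of these 7 genes excluded 0. Medians of the log2 fold changes were 0.03 over the 8 genes and −0.10 over all genes.

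Venous-marker against capillary-marker cells gave 0 of 8 genes past the adjusted threshold in edgeR, where 0.0337% of all genes passed. Unadjusted, 1 of 8 had p under 0.05, against 4.03% of all genes: Ocln, with 751, 613 and 466 CPM in venous-marker cells, against 389, 474 and 434 CPM in capillary-marker cells and a log2 fold change of 0.47 ± 0.19 (interval 0.02 to 0.92, edgeR adjusted p = 0.9999). Its ranges overlapped by the low venous value of AY_Y3. DESeq2 called 0 of 8, against 2.24% of all genes, and edgeR on thinned cells 0 of 8, against 0.0533%. Tjp1 was the 1 gene of 8 whose set ranges did not overlap, against 13.2% of all genes, with 264, 274 and 312 CPM in venous-marker cells and 156, 193 and 196 CPM in capillary-marker cells. Its interval ran from −0.34 to 1.62. For the other genes the intervals of venous over capillary were −0.17 to 0.40 for Cldn5, −0.20 to 0.46 for Esam, −0.63 to 0.29 for F11r, −0.73 to 0.14 for Pecam1, −0.63 to 0.37 for Cgnl1 and −0.75 to 0.74 for Cdh5. The median log2 fold change was 0.05 over the 8 genes and −0.03 over all genes.

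**Figure D3:**
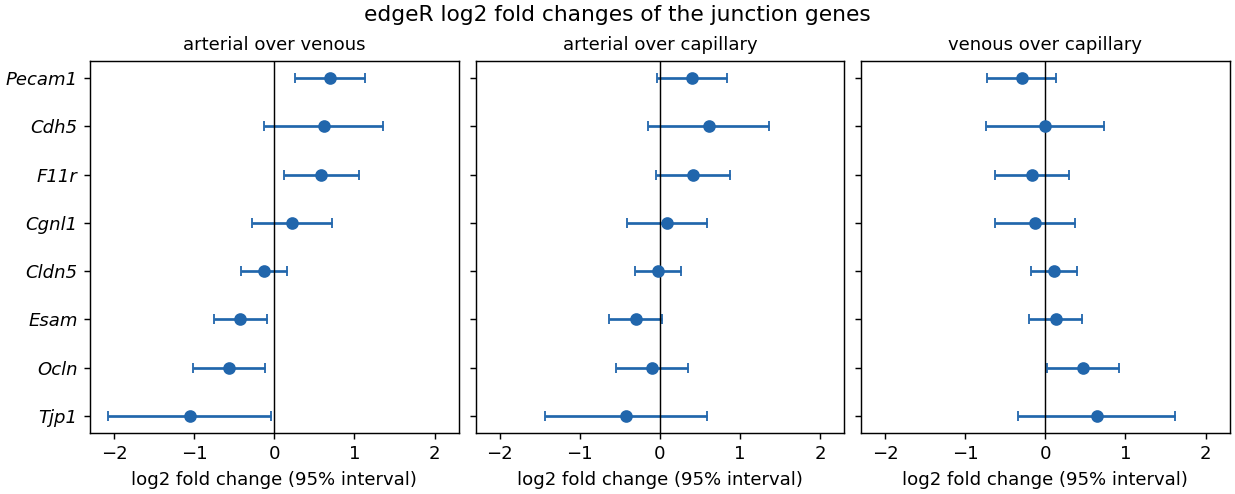
edgeR log2 fold changes of the 8 junction genes with 95% intervals for arterial over venous, arterial over capillary and venous over capillary, in the order of the arterial over venous values. In the first panel the intervals of Pecam1 and F11r lie above 0 and those of Esam, Ocln and Tjp1 below it, and no adjusted p was under 0.05 in any panel.

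Traces of pericytes differed between the classes and are given beside these values. The 10 pericyte markers summed to 36.0 to 71.1 CPM in arterial-marker, 141.6 to 327 CPM in venous-marker and 119.7 to 222 CPM in capillary-marker cells over the sets, and each of the 10 had a count. Astrocyte markers summed to 79.2 to 127.5 CPM in arterial-marker, 15.4 to 87.0 CPM in venous-marker and 27.8 to 156.4 CPM in capillary-marker cells. Oligodendrocyte markers summed to 36.1 to 235 CPM, 18.4 to 88.6 CPM and 7.4 to 144.4 CPM in the same order. The part of these traces in the class differences was not tested. In the 108 left-out wells, where the pericyte list summed to 7639 to 8251 CPM, Ocln had 352, 566 and 555 CPM, Tjp1 243, 235 and 258 CPM, and Pecam1 629, 570.4 and 759.6 CPM in Young1, Young2 and AY_Y3. With every cell entering, left-out wells included, the log2 fold changes of arterial over venous were −0.53 for Ocln, −0.88 for Tjp1 and 0.71 for Pecam1. With wells left out from 500 CPM on, they were −0.53, −1.22 and 0.93 in the same order. Neither setting tests the traces that remain in kept cells.

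The plot of levels by marker gene takes the 6 markers one at a time, with kept cells at or above 20 CPM of a marker set against those below, within each set and with no test. Pecam1 was higher in cells with Bmx and in cells with Gkn3 in 3 of 3 sets, with mean log2 ratios of 0.33 and 0.38. It was lower in cells with each of the other 4 markers in 3 of 3 sets, with mean log2 ratios of −0.33 for Nr2f2, −0.37 for Il1r1, −0.39 for Cxcl12 and −0.41 for Rgcc. F11r had 935, 718 and 806 CPM in cells with Gkn3 (7, 23 and 22 cells), against 576, 466 and 528 CPM in cells without. The mean log2 ratio of F11r was 0.64 for Gkn3, 0.31 for Bmx, −0.54 for Nr2f2 and −0.40 for Cxcl12. Each of these had 1 sign in all 3 sets, though the Cxcl12 ratio was −0.02 in Young2. For Il1r1, the other venous marker, and for Rgcc the mean of F11r was −0.14, with mixed signs. With Bmx the difference was small in single sets, with log2 ratios of 0.01 for Pecam1 in AY_Y3 and 0.07 for F11r in Young2. Esam, the third adhesion molecule gene, was lower in cells with Bmx in 3 of 3 sets (−0.39). With Gkn3 the sign of Esam differed between sets, with log2 ratios of 0.38 in Young1, −0.46 in Young2 and −0.79 in AY_Y3.

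Tjp1 followed both venous markers. It had 268, 324 and 335 CPM in cells with Nr2f2, against 177, 171 and 171 CPM in cells without, and 310.0, 318 and 275 CPM in cells with Il1r1, against 168, 176 and 171 CPM in cells without. The mean log2 ratios were 0.83 and 0.81, the highest of any pair of member and marker. Tjp1 was lower with Gkn3 in 3 of 3 sets (−0.64). With Bmx its sign differed between sets, with log2 ratios of 0.63 in Young1, −0.93 in Young2 and −1.11 in AY_Y3. Ocln was higher with Nr2f2 (mean 0.34), Il1r1 (0.39) and Cxcl12 (0.51) in 3 of 3 sets and lower with Bmx (−0.40), but with Gkn3 the sets disagreed in sign. Only 33, 23 and 30 kept cells of Young1, Young2 and AY_Y3 lay below the threshold of Cxcl12. That gene averaged 1706 CPM in arterial-marker, 1131 CPM in venous-marker and 3285 CPM in capillary-marker cells, so its presence alone does not place a cell in capillaries. Esam was higher with Il1r1 (0.23) in all 3 sets. Cdh5 was higher with Bmx (0.60), with log2 ratios of 1.22, 0.19 and 0.39 in Young1, Young2 and AY_Y3, and not with Gkn3 (−0.48, with mixed signs). Cgnl1 was lower with Nr2f2 in 3 of 3 sets (−0.54), while its sign differed between sets for the other 5 markers, with a mean of −0.81 for Gkn3 and log2 ratios for Rgcc from −1.07 in Young2 to 1.18 in Young1. Cldn5 moved least, with means between −0.10 and 0.13 for the 6 markers.

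**Figure D4:**
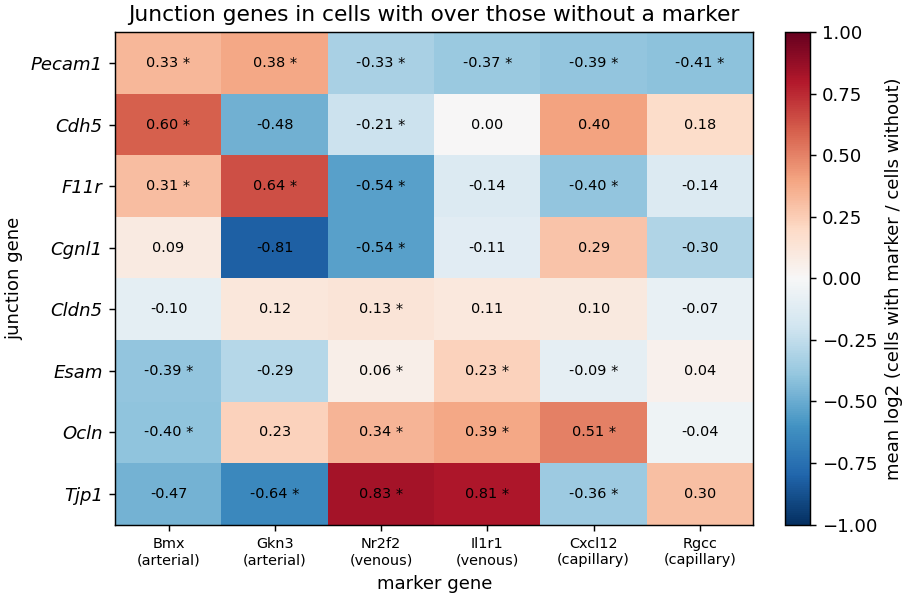
Mean over 3 sets of the log2 ratio of summed CPM in kept cells with a marker gene at 20 CPM or more over that in cells below, for the 8 junction genes (rows) and 6 marker genes (columns), where an asterisk marks pairs with 1 sign in all 3 sets. Tjp1 has the highest values, 0.83 for Nr2f2 and 0.81 for Il1r1, Cgnl1 the lowest, −0.81 for Gkn3 with mixed signs, Pecam1 is positive for both arterial markers and negative for the other 4, and the Cldn5 row stays between −0.10 and 0.13.

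Co-expression from cell to cell was weak. Spearman's rho of CPM was computed over the kept cells of each set (197 in Young1, 216 in Young2 and 224 in AY_Y3) for the 28 pairs of the 8 genes, as a description, since the cells of a set are not independent samples and differ in depth. The median rho over pairs was 0.03 in Young1, 0.05 in Young2 and 0.01 in AY_Y3, and single values ran from −0.16 to 0.27. Thinning to equal depth gave medians of 0.02, 0.04 and 0.02. Among the 28 pairs, 12 were positive in all 3 sets and 4 negative in all 3.

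The scaffold genes Tjp1 and Cgnl1 had the highest mean rho, 0.14, with 0.20 in Young1, 0.11 in Young2 and 0.12 in AY_Y3, and 0.09 after thinning. That rank was lost at equal depth, where Pecam1 and Cdh5 (0.13), Cldn5 and Ocln (0.12), Pecam1 and F11r (0.11) and Cldn5 and Esam (0.10) had higher means. The strand genes Cldn5 and Ocln had a mean of 0.13, with 0.17, 0.17 and 0.04. Pecam1 and Cdh5 reached 0.27 in Young2 but 0.07 in Young1 and −0.01 in AY_Y3. Cldn5 and Pecam1 had the lowest mean, −0.11, and were negative in each set. In sparse counts correlations this weak are no finding.

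**Figure D5:**
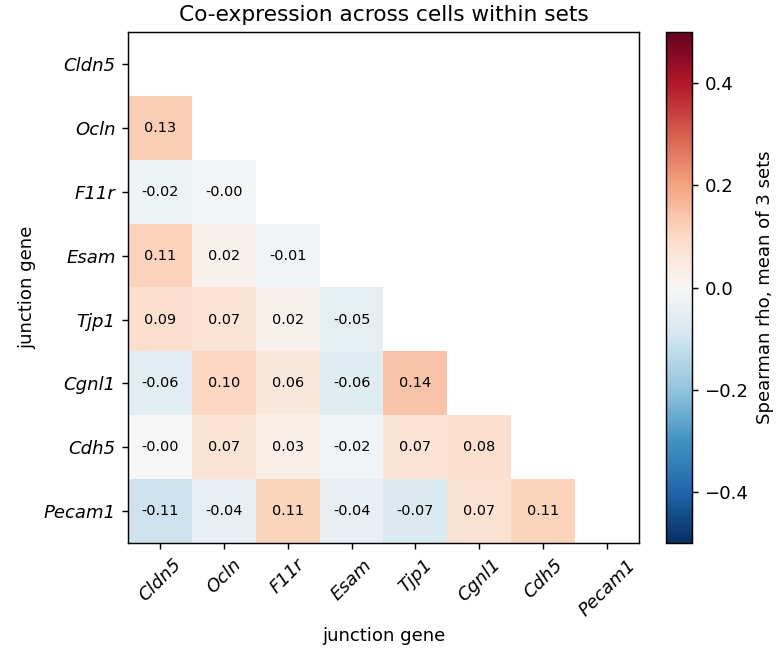
Mean over 3 sets of Spearman's rho of CPM across the kept cells of a set, for the 28 pairs of junction genes. All means lie between −0.11 and 0.14, with Tjp1 and Cgnl1 at the top and Cldn5 and Pecam1 at the bottom.

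The genes most like each member across kept cells, among 3110 genes with a count in at least 25% of them, also reached only low rho. For Ocln they were the organic anion transporter genes Slco1a4 (mean rho 0.29) and Slc22a8 (0.28) and Ndnf (0.26). For Cldn5 they were the basigin gene Bsg (0.26), the carbonic anhydrase gene Car4 (0.22) and Ndnf (0.21). For Esam they were Ctla2a (0.24), Itm2a (0.22) and Pglyrp1 (0.21), for Pecam1 the cyclin gene Ccnd2 (0.23), Amd1 (0.20) and the junctional receptor gene Heg1 (0.19), and for F11r the glutamine synthetase gene Glul (0.21), the alkaline phosphatase gene Alpl (0.21) and Amd1 (0.21). Tjp1 was most like the ribosomal protein gene Rps29 (0.24), Net1 (0.23) and the thymosin gene Tmsb10 (0.22). Cdh5 was most like the mitochondrial gene mt-Nd6 (0.23), Safb (0.21) and Nampt (0.19), and Cgnl1 like Rassf3 (0.20), 9430020K01Rik (0.19) and 0610037L13Rik (0.19). No member was among the 3 genes most like another member, and genes with near-identical copies, such as Rps29 and Amd1, are uncertain.

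Other junction genes were taken from a list of 55 that named tight, adherens and gap junction genes and their Rap and cerebral cavernous malformation partners, of which 51 were in the table and 38 passed the filter on low counts. In edgeR 0 of the 38 passed in each of the 3 comparisons. Unadjusted p under 0.05 was found for 10 of 38 between arterial-marker and venous-marker, 6 between arterial-marker and capillary-marker and 4 between venous-marker and capillary-marker cells, where the shares of all genes were 11.4%, 7.52% and 4.03%. DESeq2 called 7, 4 and 3 of the 38 in the same order of comparisons, where it called 10.7%, 5.88% and 2.24% of all genes. Median log2 fold changes of the list, again in that order, were 0.13, −0.15 and −0.09, against −0.07, −0.10 and −0.03 over all genes.

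Jam2, a second junctional adhesion molecule gene and a close relative of F11r, had 493, 410.06 and 495 CPM in arterial-marker cells, against 495, 664 and 559 CPM in venous-marker cells, with a log2 fold change of −0.25 ± 0.19 (interval −0.69 to 0.20, edgeR adjusted p = 0.693). It differed in sign from F11r, and that difference between the genes was not tested. Of the other claudin genes on the list, Cldn1, Cldn11 and Cldn15 summed to at most 0.0304 CPM in any set of the 3 classes and Cldn12 to between 0.116 and 20.5 CPM, and none of the 4 passed the filter on low counts. Cldn3 was not analysed here.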

How the data were processed

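The deposited table holds whole-number counts of reads per gene symbol and cell, with no normalization, as deposited by the authors. Bowtie 0.12.2 and the builds mm8 and mm10 are named in the submitters' processing notes. Which tool, annotation and strand setting gave the counts is not given in the sources used here. The reads carry no molecular identifiers, so the counts are of reads and not of molecules. Detection intervals cover counting error only. Intervals of fold changes rest on the spread that edgeR estimated between the sums of sets and classes. Members and gene lists were chosen with earlier results of these data known.

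Every cell entered detection and levels. For the class comparisons, wells with an other-cell-type list at 2000 CPM or more were left out, which also served for doublets, since no doublet caller was run. Cells were classed by 6 marker genes at 20 CPM, and their raw counts were added up within each set and class to give 9 sums. Cells are not replicates. The quasi-likelihood test of edgeR 4.0.16, under R 4.3.3, was run on these sums with TMM scaling. The set entered as a block, because every set supplied all 3 classes. Tested genes met edgeR's default count filter and were detected in 5% or more of the entering cells, and the 6 marker genes were left out. Adjusted p-values are Benjamini-Hochberg over all 8900 genes tested, with a threshold of 0.05. DESeq2 1.42.0 was an alternative, as were total-count scaling, no count filter, other marker thresholds, other limits on wells, cells thinned to 50000 counts, no set block and each set left out. Detection intervals are exact binomial, and ± after CPM is the SD of 3 sets. Python 3.11.15, pandas 2.3.3 and scipy 1.17.1 were used, and no cells had identical counts.

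The text names all members and marker genes, close relatives of the members in the wider list that were tested, of which 1 is not reported here, any gene of that list called by edgeR, and the 3 genes most like each member. Genes of the wider list named elsewhere were chosen after their values were seen.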

Additional observations from a re-analysis of the deposited data

How the results depend on the processing

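Of the 288 fold changes of the 8 genes under the alternatives, 272 kept their direction and their side of the threshold, 4 passed it and 12 changed sign, all at 0.1667 or nearer to 0. The 4 were arterial over venous: Pecam1 and F11r in DESeq2 (adjusted p = 0.00206 and 0.0350), and Esam and F11r with thinned cells (adjusted p = 0.0230 and 0.0394), so the members called were 2 in each. Over all alternatives the adjusted p ran from 0.00206 to 0.651 for Pecam1, from 0.0350 to 0.615 for F11r and from 0.0230 to 0.692 for Esam. The Cldn5 change of arterial over capillary was 0.0169 in DESeq2 and 0.017 with wells at 500 CPM left out, with −0.1258 to 0.0624 when a set was left out, and that of venous over capillary −0.0211 with all cells. The Cdh5 change of venous over capillary was 0.0104 in DESeq2, 0.0145 at a marker threshold of 100 CPM, 0.0202 without the replicate block, and −0.2068 to 0.1667 without a set. Without a set, Ocln ran from −0.28 to 0.0213 (arterial over capillary) and Cgnl1 from −0.2718 to 0.0128 (venous over capillary). Leaving out the block changed no call of a member.

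In the wider junction list, DESeq2 called 4 genes arterial over capillary, 3 venous over capillary and 7 arterial over venous, where edgeR called 0 and DESeq2 called 523, 199 and 955 of all 8900 genes. Thinned cells gave 1 gene arterial over capillary and 2 arterial over venous (94 and 244 of all 7499 genes), wells at 500 CPM left out gave 1 venous over capillary and 2 arterial over venous (3 and 78 of all 8762), and any count as marker threshold gave 1 arterial over venous (162 of all 8860). Without a set, 0 to 1 gene was called venous over capillary and 0 to 2 arterial over venous. The cause was not tested. Over all genes, edgeR's 123 calls of arterial over venous became 70 without Young1, 1 without Young2 and 0 without AY_Y3. Total-count scaling moved the median of all genes to −0.16 for arterial over capillary and −0.12 for arterial over venous. Thinning moved 12 of the 24 detection values outside their counting interval, so depth limits the shares of Ocln, Tjp1 and Cdh5 in all 3 sets, Cgnl1 in Young1 and Young2 and Pecam1 in Young2.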

Other observations

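Among the wider junction genes, the 3 described here were chosen after their values were seen, and none passed edgeR's adjusted threshold with the settings used in the report. Under other edgeR settings Gja4 and Cdh13 were called between arterial-marker and venous-marker cells with wells at 500 CPM left out and without Young1. In the same comparison Gja4 was also called with any count as the marker threshold, and Gjc1 and Heg1 with thinned cells. Heg1 is not described further here. Gja4, a connexin gene of arterial gap junctions, had 317, 82.4 and 168 CPM in arterial-marker cells of Young1, Young2 and AY_Y3, 2.38, 0 and 0 CPM in venous-marker cells and 31.3, 29.1 and 19.7 CPM in capillary-marker cells (arterial over venous, edgeR adjusted p = 0.0580). Cdh13, which codes for a cadherin anchored to the membrane by a lipid, had 789.8, 679 and 538 CPM in arterial-marker cells, 12.7, 0 and 0 CPM in venous-marker cells and 113.5, 78.6 and 120.2 CPM in capillary-marker cells (arterial over venous, edgeR adjusted p = 0.106). Gjc1, another connexin gene, ran the other way, with 88.7, 62.1 and 108 CPM in arterial-marker cells, 187, 260.1 and 209 CPM in venous-marker cells and 148, 204 and 179.6 CPM in capillary-marker cells (edgeR adjusted p = 0.137). In all 3 genes the arterial and venous ranges did not overlap, as in 11 of the 38 tested genes of the list and 17.7% of all genes.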
